A study of Mus musculus with 5 samples.

Results

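Genes of the interferon response, of nucleic acid sensing and of the TRIM ubiquitin ligase family were examined in RNA-seq of mouse embryonic stem cells transfected with siRNA against Dhx30 or Tfam. Members were chosen by name alone: every listed gene whose name starts with IRF, IFI, IFN, OAS, STAT or TRIM, together with ADAR, MAVS and TBK1. The rule also held the names TMEM173, MB21D1 and ISG15, which matched no gene name used here. It gave 52 of the 12930 listed genes, and 50 of the 52 had a value in all 4 siRNA libraries. The families were 25 Trim genes, 6 Oas genes, 6 Stat genes, 5 Irf genes, 4 Ifi genes, 3 interferon receptor subunits and 3 sensors or adaptors. The study comprised 5 libraries of OG2 cells, from a cross the labels give as (CBA/CaJxC57BL/6J) with 129Sv/Jae: 2 labelled siDhx30, 2 labelled siTfam and 1 labelled NC, whose treatment is given as a negative control. All cells spent 24 h in N2B27 medium with LIF, PD0325901 and CHIR99021, which holds the naive state. They were then transfected with 50 nM siRNA and moved for 36 h to medium with bFGF, Activin A and knockout serum replacement. Whether the replicates came from separate cultures is not given in the labels, so a p-value here speaks for the spread among these libraries alone, and that spread may be technical.

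Each deposited value is a log2 ratio between 1 siRNA library and NC. The headings name neither the direction nor the denominator. Genes that lacked a value in some library had 1574 values in others, all of them below 0, against 48.7% of the values of complete genes. The filter behind the missing values is not known. On the assumption that genes with a missing value were low in NC, which all ratios share, the values were read as NC over siRNA. They were turned round, so that a positive value below means a higher level in the siRNA library. Every direction below rests on that reading. Depth is unknown and a ratio carries no level, so counting intervals cannot be given and levels of different genes are not compared.

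Cells sense foreign or misplaced nucleic acid with cytosolic receptors whose signal passes through adaptors such as MAVS, on the mitochondrial outer membrane, and STING to the kinase TBK1 and the transcription factor IRF3. The interferons so induced bind receptors at the cell surface and activate a complex that includes STAT2 and IRF9, which switches on antiviral genes such as the Oas family through a promoter motif, the interferon-stimulated response element (ISRE). Mitochondrial DNA and RNA released into the cytosol can start this response, and partial loss of TFAM does so in mouse fibroblasts. Embryonic stem cells are known to respond weakly to these triggers. TRIM proteins are a large ubiquitin ligase family; some tune this pathway, and others, such as TRIM28, silence endogenous retroviruses.

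The ISRE was searched in promoters because it is the sequence through which this response acts on its targets. The motif searched was TTTCNNTTTC on the forward strand or GAAANNGAAA on the reverse strand, in RefSeq promoter sequences (GRCm38.p6) that run from 250 bases before to 50 bases after each gene's start. Stretches around the matches are printed for 6 members, 5′ to 3′ on the gene's strand, with the matched bases in capitals, overlapping matches merged. They lie at chr5:120812588-120812653 (minus strand, Oas1c), chr5:120887614-120887656 (minus, Oas1g), chr5:120777700-120777759 (minus, Oas3), chr10:128270251-128270310 (plus, Stat2), chr1:52008118-52008177 (plus, Stat4) and chr17:36836961-36837026 (plus, Trim26).
Oas1c: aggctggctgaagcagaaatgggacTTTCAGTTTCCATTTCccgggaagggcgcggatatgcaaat
Oas1g: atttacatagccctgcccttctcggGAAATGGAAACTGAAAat
Oas3: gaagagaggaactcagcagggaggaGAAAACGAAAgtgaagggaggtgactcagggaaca
Stat2: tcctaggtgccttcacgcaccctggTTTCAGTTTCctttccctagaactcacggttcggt
Stat4: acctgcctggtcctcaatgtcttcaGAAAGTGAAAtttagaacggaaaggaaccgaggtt
Trim26: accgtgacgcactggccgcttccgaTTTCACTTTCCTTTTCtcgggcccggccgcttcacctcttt
The Oas1g match, a pair of overlapping motifs, ends 2 bases before the gene's start, whereas the Stat2 match lies furthest out, at 212 bases. The Stat4 window belongs to an alternative start inside the annotated gene. Trim2 and Trim21 also held the motif, within their first transcribed bases.

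Of the 42 complete members with a RefSeq promoter, 8 held the ISRE letters (19.0%), against 3.42% of the 8340 complete genes with a promoter and 3.99% of all 27025 RefSeq promoters. The gamma-activated site, bound by STAT dimers and searched as TTCNNNGAA, was in 6 of the 42 members (14.3%), against 8.32% and 9.55% of the same sets. A match is a stretch of letters, and no binding was measured. The 8 members with an ISRE had a median log2 ratio of 0.04 in siDhx30 over NC and 0.21 in siTfam over NC, against -0.03 and -0.03 for the members without one. Among these 8, Oas1g and Oas3 had ratios shared exactly with another gene in 3 libraries, and Stat4 in 4. Such sharing is used below as a rough mark of low counts. The part of the motif in these medians was not tested. For all 285 complete genes with the motif the medians were 0.01 in siDhx30 and 0.04 in siTfam, against -0.01 and -0.02 for complete genes without it.

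Of the targeted transcripts, Dhx30 stood at -0.40 and -0.20 on the log2 scale in siDhx30, and Tfam at -0.28 and -0.02 in siTfam. Neither passed the test (limma adjusted p = 0.998 for Dhx30 and 0.987 for Tfam), so a lower level of either target was not established, and the groups are named here by their labels. With the deposited sign kept, Dhx30 would stand at 123.2% of NC in siDhx30 and Tfam at 110.9% in siTfam. Of 14 pluripotency markers 5 were listed (Esrrb, Tfcp2l1, Otx2, Dnmt3b and Sall4), and the other 9, Pou5f1, Sox2 and Nanog among them, were not analysed here. Of 9 leukocyte markers Ptprc and Cd68 were listed, the sum of which cannot be formed from ratios. Their mean log2 ratios lay between -0.28 and 0.10 against NC. Of 7 primitive endoderm markers 4 were complete, with a median log2 ratio of -0.26 in siDhx30, where 2 of 4 were positive, and of -0.92 in siTfam, where 0 of 4 were. Gata6, an incomplete one, had a value in siDhx30 replicate 2 alone, 1.58. Of 4 endothelial markers Pecam1 and Tek were listed, and they differed. Pecam1 had 0.02 and -0.11 in siDhx30 and 0.16 and 0.17 in siTfam. Tek had 1.16 and 1.27 in siDhx30 and 1.41 and 1.27 in siTfam (limma adjusted p = 0.618 and 0.436 against NC). The part of these markers in the ratios of the members was not tested. In bulk RNA, fewer cells of a type and less RNA per cell cannot be told apart.

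No member of the family passed the test in any comparison. With limma and Benjamini-Hochberg adjustment over all 12088 complete genes, 0 of 50 members had an adjusted p under 0.05 in siDhx30 against NC, where the share over all genes was 0%. The count was also 0 of 50 in siTfam against NC, with 0% of all genes, and 0 of 50 in siDhx30 against siTfam, with 0% of all genes. At an unadjusted p under 0.05 the members numbered 0 higher and 0 lower in every comparison. Over all genes those shares were 2.56% higher and 2.47% lower in siDhx30 against NC, 3.04% higher and 3.08% lower in siTfam against NC, and 1.29% higher and 1.5% lower in siDhx30 against siTfam. The smallest unadjusted member p was 0.0991 for Trim68 in siDhx30 against NC, 0.0606 for Stat4 in siTfam against NC and 0.0642 for Oas1g in siDhx30 against siTfam, with limma adjusted p of 0.998, 0.844 and 0.999 in that order.

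The members as a group stood close to NC. Their median log2 ratio was -0.03 in siDhx30 over NC and 0.02 in siTfam over NC, beside -0.01 and -0.02 for all complete genes. In the siDhx30 libraries 11 of 50 members lay above NC in both replicates (22%, against 32.1% of all genes) and 18 lay below in both (36%, against 34.9%). In the siTfam libraries 16 lay above in both (32%, against 32% of all genes) and 17 below in both (34%, against 34.4%). Both comparisons use the same NC library. A mean of at least 1 in size on the log2 scale was reached by 1 member in siDhx30 over NC (2%, against 5.55% of all genes) and by 3 members in siTfam over NC (6%, against 6.51%).

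**Figure D1:**
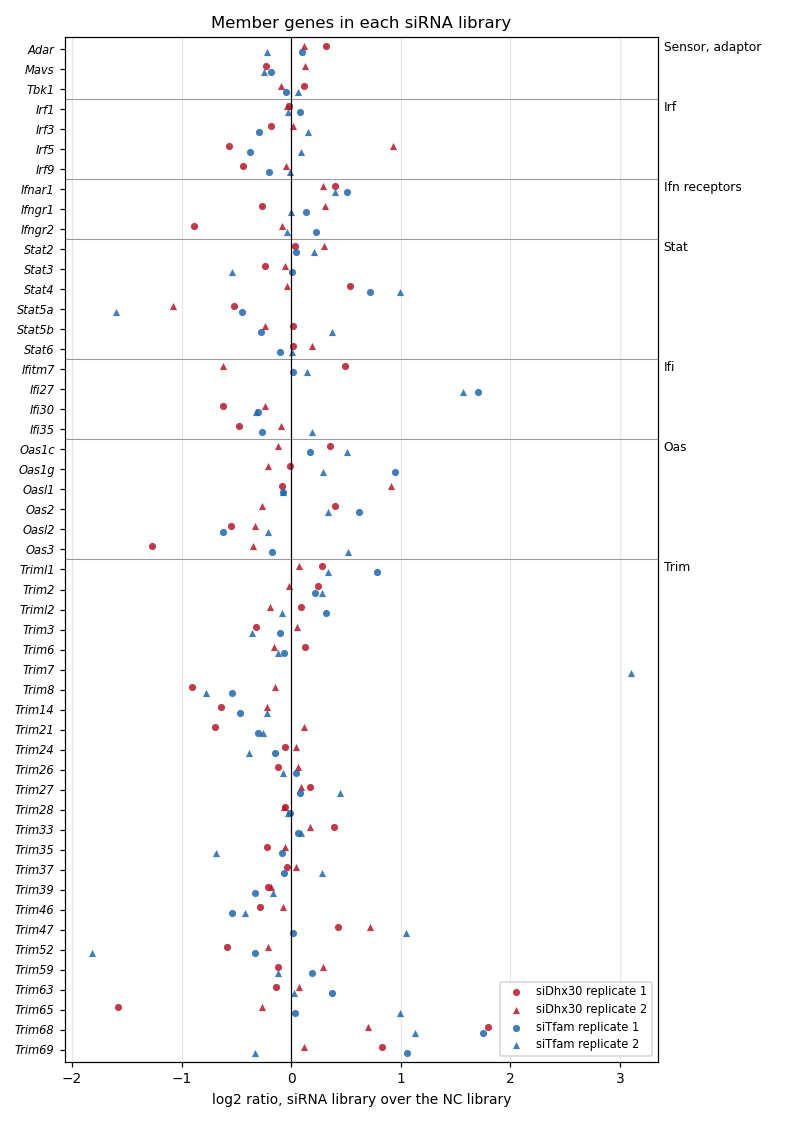
Log2 ratio over NC (x axis) of the members (rows, grouped by family; 1 not drawn) in the 2 siDhx30 libraries (red) and the 2 siTfam libraries (blue), with circles for replicate 1 and triangles for replicate 2. Most points lie within 1 of NC on the log2 scale, Trim68 lies above NC in all 4 libraries, and Ifi27 and Trim7 have values in siTfam libraries alone.

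Among the 3 sensors or adaptors chosen by name, mean log2 ratios lay between -0.21 and 0.22 against NC. Mavs (chr2:131234063-131248025), the mitochondrial adaptor of the RIG-I-like receptors, had log2 ratios of -0.23 and 0.13 in siDhx30 and -0.18 and -0.24 in siTfam. Tbk1 (chr10:121546455-121586787), the kinase that phosphorylates IRF3, had 0.12 and -0.09 in siDhx30 and -0.05 and 0.06 in siTfam. Adar (chr3:89715022-89753446), which edits adenosine to inosine in paired RNA and so hides the cell's own RNA from its sensors, had 0.32 and 0.12 in siDhx30 and 0.10 and -0.22 in siTfam. The siDhx30 values of Adar lay above both siTfam values by a narrow margin, and the Mavs and Tbk1 values of the groups overlapped. For all 3 genes the 95% interval of the mean lay within 1 log2 unit of zero in all 3 comparisons. For Adar in siDhx30 over NC it ran between -0.45 and 0.89. STING1, the adaptor of the DNA sensing branch, is listed under its current name and so was not chosen by the rule, which has the older name. It had 0.93 and 0.01 in siDhx30 and 0.34 and 0.50 in siTfam, all above NC (limma adjusted p = 0.998 in siDhx30 and 0.987 in siTfam). The DNA sensor cGAS (Mb21d1), the RNA sensor Ifih1 and Isg15 were not analysed here.

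The interferon regulatory factors were scattered around NC, with a median log2 ratio of -0.03 in siDhx30 and -0.07 in siTfam over the 5 genes. Irf3, the factor activated by TBK1, had -0.18 and 0.02 in siDhx30 and -0.29 and 0.15 in siTfam. Irf1, an early interferon gamma target, had -0.02 and -0.04 in siDhx30 and 0.08 and -0.03 in siTfam and so stayed close to NC in every library. Irf9, the DNA-binding subunit of the complex with STAT2, had -0.44 and -0.04 in siDhx30 and -0.20 and -0.01 in siTfam, below NC in all 4 libraries. Irf9 overlaps Rnf31 on the same strand, so the reads of this pair could be split by the authors' counting. Irf5, which drives inflammatory cytokines in myeloid cells, had -0.57 and 0.93 in siDhx30 and -0.38 and 0.09 in siTfam. Its siDhx30 replicates were on opposite sides of NC and further apart than those of any other complete member.

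Among the receptors, Ifnar1 (ENSMUSG00000022967.13, chr16:91485238-91507441), a subunit of the type I interferon receptor, stood above NC throughout. Its log2 ratios were 0.40 and 0.29 in siDhx30 and 0.51 and 0.40 in siTfam, so the libraries spread by little. The mean was 0.34 in siDhx30, or 127% of NC (95% interval 88.2% to 182%), and 0.46 in siTfam, or 137% of NC (95.3% to 197%). Neither passed (limma adjusted p = 0.998 and 0.858). Ifngr1, the ligand-binding chain of the interferon gamma receptor, had -0.27 and 0.31 in siDhx30 and 0.13 and 0.00165 in siTfam. Ifngr2, its signalling chain, had -0.88 and -0.08 in siDhx30 and 0.23 and -0.04 in siTfam. The low Ifngr2 mean in siDhx30, -0.48, came mostly from replicate 1.

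The STAT factors had a median log2 ratio of -0.0033 in siDhx30 and 0.0014 in siTfam over 6 genes. Stat2, the partner of IRF9, had 0.03 and 0.30 in siDhx30 and 0.05 and 0.21 in siTfam, above NC in all 4 libraries. Stat3, which carries the LIF signal for self-renewal of mouse embryonic stem cells, had -0.23 and -0.05 in siDhx30 and 0.01 and -0.54 in siTfam. Stat5a (ENSMUSG00000004043.14, chr11:100859351-100885169), a target of prolactin and growth hormone signalling, had -0.52 and -1.08 in siDhx30 and -0.45 and -1.60 in siTfam. All 4 Stat5a values lay below NC, but its replicates were far apart, and the mean of -1.02 in siTfam had a 95% interval of -2.67 to 0.62. Stat3 and Stat5a overlap on opposite strands, and whether the counting used strand is not given in the sources used here. Its neighbour Stat5b had 0.01 and -0.23 in siDhx30 and -0.27 and 0.37 in siTfam. Stat6, the interleukin 4 factor, had 0.02 and 0.19 in siDhx30 and -0.10 and 0.01 in siTfam. Stat4 (ENSMUSG00000062939.11, chr1:51987148-52107189), the interleukin 12 factor, had 0.53 and -0.04 in siDhx30 and 0.72 and 1.00 in siTfam. The siTfam values of Stat4 lay above both siDhx30 values and NC, with a mean of 0.86 over NC (SE 0.33, limma adjusted p = 0.844). Stat4 overlaps Gm28177 on the same strand, so the reads of this pair could be split too.

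The 3 complete Ifi genes, interferon-induced targets at the end of the pathway, had mean ratios below NC in siDhx30. Ifi30, a lysosomal thiol reductase, had -0.62 and -0.24 in siDhx30 and -0.30 and -0.32 in siTfam, below NC in all 4 libraries. Ifi35 had -0.47 and -0.09 in siDhx30 and -0.27 and 0.20 in siTfam. Ifitm7, of the family of membrane proteins that block virus entry, had 0.49 and -0.62 in siDhx30 and 0.02 and 0.15 in siTfam, so that its siDhx30 replicates were on opposite sides of NC. Ifi27, an interferon-inducible gene, had no value in either siDhx30 library and 1.71 and 1.57 in siTfam. Its siTfam values are among the largest of the family, but it was left out of the test because of the missing values. As read here, every value of a gene with missing values lay above NC, so leaving such genes out removes high values alone.

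The active enzymes of the oligoadenylate synthetase family make the messenger that activates RNase L when they bind paired RNA. The 6 listed genes of the family are paralogs, all on chromosome 5, and reads could be split between them. Their median log2 ratio was -0.02 in siDhx30 and 0.26 in siTfam over 6 genes. Oas1g (ENSMUSG00000066861.14, chr5:120876142-120887613) had -0.01 and -0.21 in siDhx30 and 0.94 and 0.29 in siTfam, so both siDhx30 values were below NC and both siTfam values above it. Oas3 (ENSMUSG00000032661.9, chr5:120753098-120777661) had -1.27 and -0.35 in siDhx30 and -0.17 and 0.52 in siTfam. The groups did not overlap for either gene, but the Oas3 replicates of each siRNA were far apart. Oas2 had 0.40 and -0.26 in siDhx30 and 0.62 and 0.34 in siTfam. Oas1c had 0.36 and -0.12 in siDhx30 and 0.17 and 0.51 in siTfam. Oasl1, which in mouse represses translation of Irf7, had -0.08 and 0.91 in siDhx30 and -0.08 and -0.07 in siTfam. The high Oasl1 value belonged to siDhx30 replicate 2 alone. Oasl2, next to it on the chromosome, had -0.55 and -0.33 in siDhx30 and -0.62 and -0.21 in siTfam, below NC in all 4 libraries. Of Oas1c, Oas1g and Oas3, whose ISRE letters are printed above, the mean log2 ratios were 0.12, -0.11 and -0.81 in siDhx30 and 0.34, 0.62 and 0.17 in siTfam, in that order. All 3 means were positive in siTfam, while Oas1c in siDhx30 and Oas3 in siTfam had replicates on opposite sides of NC.

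The 24 complete Trim genes had a median log2 ratio of -0.03 in siDhx30 and 0.01 in siTfam. Trim28, the corepressor that silences endogenous retroviruses in embryonic stem cells, had -0.05 and -0.07 in siDhx30 and -0.01 and -0.03 in siTfam. Its 95% interval was 68.4% to 135% of NC in siDhx30 and 70.1% to 138% in siTfam. Among its relatives of the transcriptional intermediary factor group, Trim24, a nuclear receptor cofactor, had -0.05 and 0.05 in siDhx30 and -0.15 and -0.38 in siTfam. Trim33, which acts on SMAD signalling, had 0.40 and 0.18 in siDhx30 and 0.06 and 0.09 in siTfam. Both genes lay higher in each siDhx30 library than in either siTfam library.

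The complete member with the highest mean over NC was Trim68 (ENSMUSG00000073968.4, chr7:102677582-102687327), a ligase of the androgen receptor in human cells. On the log2 scale it had 1.80 and 0.70 in siDhx30 and 1.75 and 1.13 in siTfam. The mean was 1.25 in siDhx30 (SE 0.58, 95% interval -0.38 to 2.87, limma adjusted p = 0.998) and 1.44 in siTfam (SE 0.58, -0.18 to 3.07, adjusted p = 0.847). All 4 libraries lay above the single NC library, which each ratio shares. Trim68 overlaps Gm45527 on the same strand, so the reads of this pair could also be split. Trim65 (ENSMUSG00000054517.9, chr11:116121846-116131128), which ubiquitinates the RNA sensor MDA5, had -1.58 and -0.26 in siDhx30 and 0.03 and 1.00 in siTfam. Trim47 had 0.43 and 0.72 in siDhx30 and 0.02 and 1.05 in siTfam. Trim47 and Trim65 overlap on the same strand, so their counts could affect each other. Trim52 had -0.58 and -0.21 in siDhx30 and -0.33 and -1.82 in siTfam, where replicate 2 alone was low. Trim69 had 0.83 and 0.12 in siDhx30 and 1.06 and -0.33 in siTfam, a spread of more than 1 log2 unit between the siTfam replicates.

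Other Trim genes also had both replicates of an siRNA on 1 side of NC. Trim8 had -0.91 and -0.15 in siDhx30 and -0.54 and -0.77 in siTfam. Trim14, which has been placed at mitochondria with MAVS in human cells, had -0.64 and -0.22 in siDhx30 and -0.46 and -0.22 in siTfam. Trim46, a microtubule-bundling protein of axons, had -0.29 and -0.08 in siDhx30 and -0.54 and -0.42 in siTfam. These genes lay below NC in all 4 libraries. Trim39 did too, with -0.21 and -0.19 in siDhx30 and -0.33 and -0.16 in siTfam, as did Trim35, with -0.22 and -0.05 in siDhx30 and -0.09 and -0.68 in siTfam. Trim21, a cytosolic antibody receptor with ISRE letters near its start, had -0.69 and 0.12 in siDhx30 and -0.30 and -0.25 in siTfam. Its siDhx30 replicates were thus on opposite sides of NC. Triml1 lay above NC throughout, with 0.28 and 0.07 in siDhx30 and 0.78 and 0.34 in siTfam. Trim27 did so as well, with 0.17 and 0.09 in siDhx30 and 0.08 and 0.44 in siTfam. Trim2, a ligase of neurofilament light chain, had 0.24 and -0.02 in siDhx30 and 0.22 and 0.28 in siTfam. The other complete Trim genes (Trim3, Trim6, Trim26, Trim37, Trim59, Trim63 and Triml2) had mean log2 ratios between -0.14 and 0.09 in siDhx30 and between -0.23 and 0.20 in siTfam. Trim7 had a value in siTfam replicate 2 alone, 3.10, and was not tested. Trim25 and Trim71 were not analysed here.

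**Figure D2:**
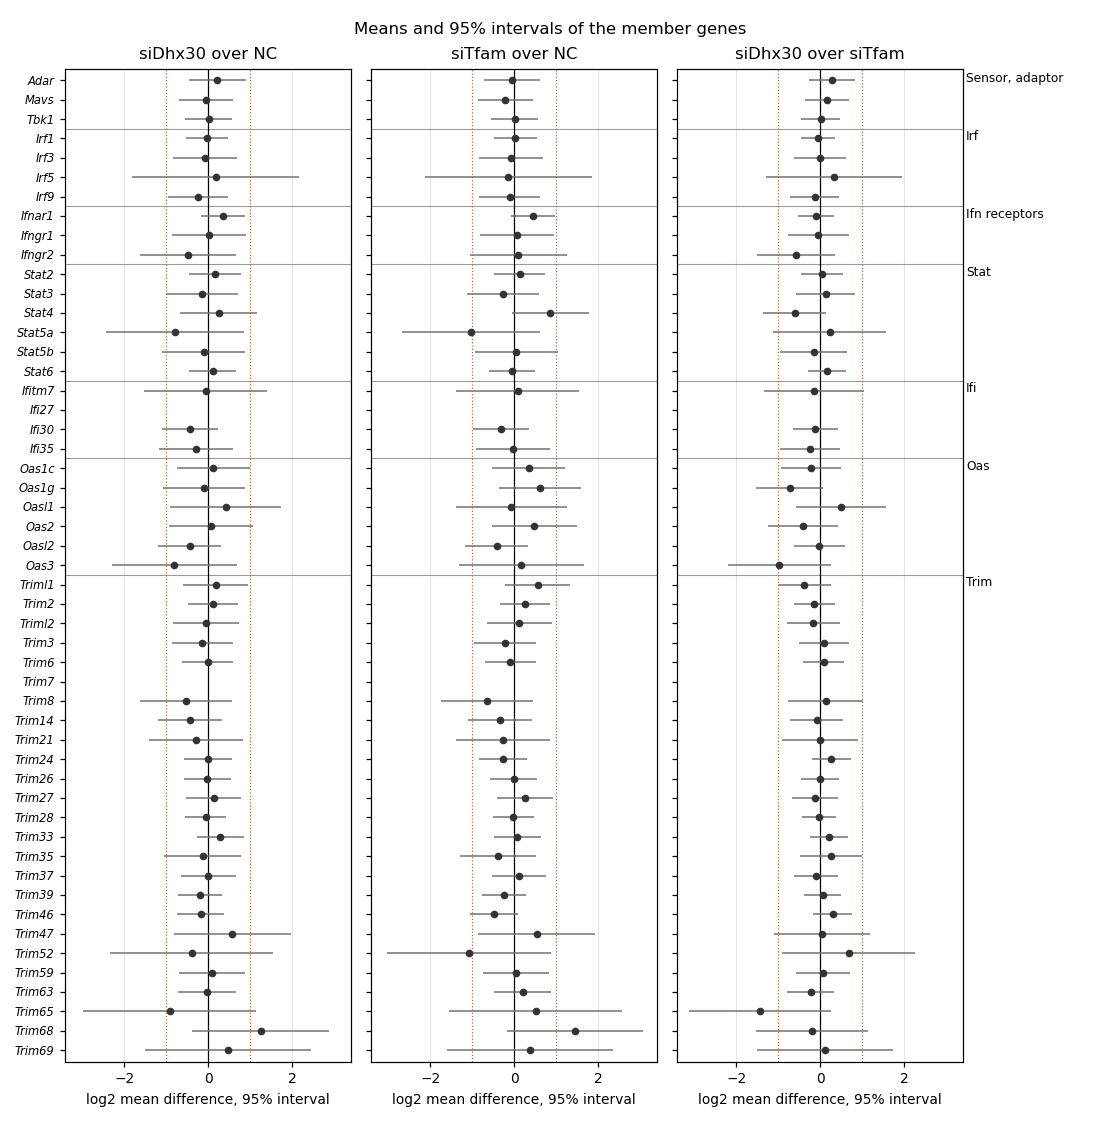
Mean log2 difference (points) with 95% limma intervals (lines) of the complete members (1 not drawn) in siDhx30 over NC, siTfam over NC and siDhx30 over siTfam, with dotted lines at -1 and 1. Every interval includes 0, and the widest are those of genes such as Irf5, Trim52, Trim65 and Trim69, whose replicates were far apart.

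The direct comparison of the siRNAs is the one with 2 libraries on each side and no part of NC. The median log2 difference over the 50 members was -0.02, siDhx30 over siTfam, beside -0.0015 for all genes. In 5 members both siDhx30 libraries lay above both siTfam libraries (10%, against 14.7% of all genes): Adar, Stat6, Trim24, Trim33 and Trim46. In 8 members both siDhx30 libraries lay below both siTfam libraries (16%, against 14.3%): Ifnar1, Ifngr2, Oas1g, Oas3, Stat4, Trim28, Trim65 and Triml1. These shares were near those of all genes. The largest difference was that of Trim65, -1.43 (SE 0.60, 95% interval -3.11 to 0.25), at a limma adjusted p of 0.999. For Oas3 it was -0.98 (SE 0.44), for Oas1g -0.73 (SE 0.28) and for Stat4 -0.61 (SE 0.27), each with a limma adjusted p of 0.999. Of the 6 Oas genes 5 had a negative difference, where the share over all genes was 50.2%, and Oasl1 a positive one, 0.49. The groups were apart for only 2 of the 6, Oas1g and Oas3.

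Replicates of these genes were often on opposite sides of NC. In siDhx30 21 of 50 members (42%) had their replicates on opposite sides of NC, against 33.0% of all genes, and in siTfam 17 of 50 (34%), against 33.6%. The median gap between replicates was 0.29 log2 units for the members in siDhx30 and 0.28 in siTfam, against 0.23 and 0.24 for all genes. The median size of a member's mean was 0.17 in siDhx30 and 0.22 in siTfam, smaller than the median replicate gap. The same held over all genes, with median sizes of 0.20 in siDhx30 and 0.21 in siTfam.

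**Figure D3:**
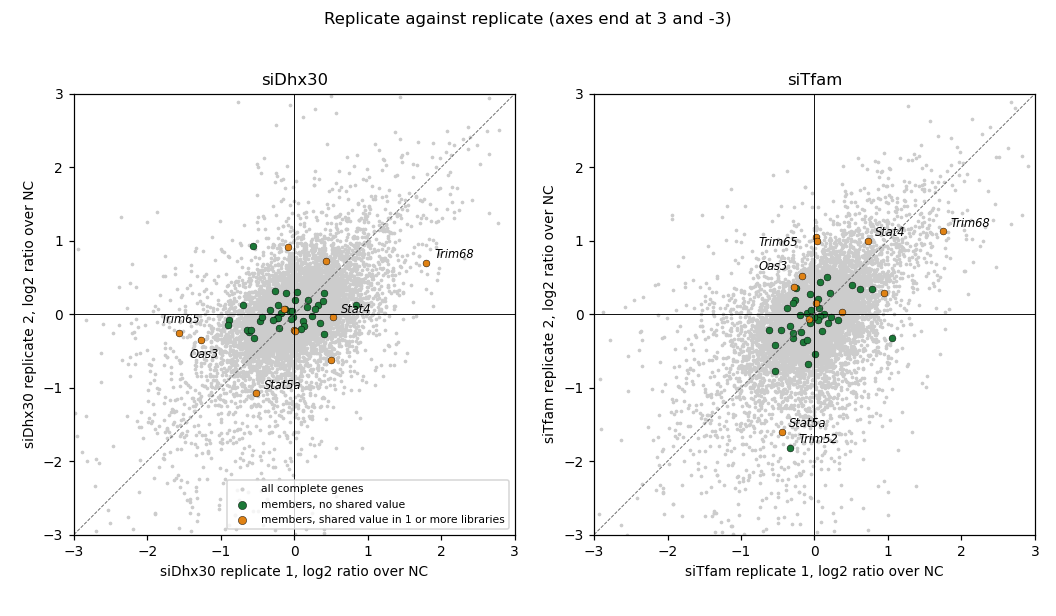
Log2 ratio over NC of replicate 1 (x axis) and replicate 2 (y axis) for all complete genes (grey) and the 50 complete members (green, or orange where the value is shared exactly with another gene in 1 or more libraries), in siDhx30 (left) and siTfam (right); genes beyond 3 or -3 are not drawn. Members lie around the origin inside the grey cloud. Most of the labelled genes are orange, but the labels were picked by hand. Unlabelled green members, such as Irf5 and Trim8 in siDhx30, also lie away from the origin.

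Ratios that 2 genes share to every deposited digit in a library can arise where their pairs of counts coincide, which is easier at low counts. They were used as a rough mark of low counts, since no count is given. Of the 50 complete members 11 (22%) had a shared value in at least 1 library, against 25.9% of all genes. Over all genes the median gap between replicates grew with the number of libraries with a shared value. With 0 such libraries it was 0.19 in siDhx30 and 0.20 in siTfam, and with 4 it was 0.60 and 0.69. Stat4 and Trim65 had shared values in all 4 libraries, and in siTfam replicate 2 both had the same ratio, 0.996, together with Cd40. Oas1g, Oas3 and Trim68 had them in 3 libraries, and Stat5a and Stat5b in 2. Of the complete members with a mean of at least 1 in size on the log2 scale in any comparison, Trim52 alone had no shared value. Among members with smaller differences, Trim8, Ifngr2 and Triml1 had none either. The part of low counts in those differences was not tested. Ifi27 and Trim7, the 2 incomplete members, each had a shared value in siTfam replicate 2.

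**Figure D4:**
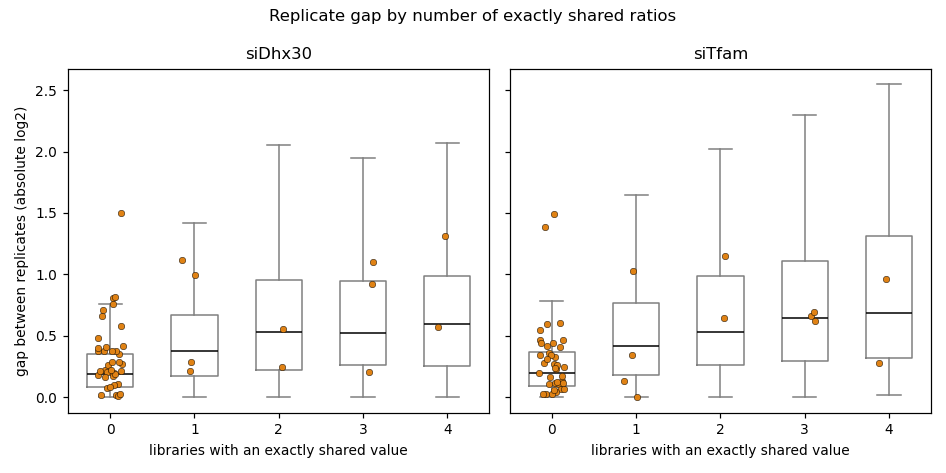
Absolute log2 gap between the replicates of siDhx30 (left) and siTfam (right), by the number of siRNA libraries in which the gene's ratio equals that of another gene to every digit. Boxes show the median and quartiles of all complete genes with whiskers to 1.5 times the box length, and orange points are the 50 complete members; the medians run upward from 0.19 and 0.20 to 0.60 and 0.69.

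The intervals show what size of change these libraries leave room for. The median 95% interval of a member reached 0.77 log2 units to each side against NC and 0.63 in siDhx30 against siTfam. The upper limit lay below a log2 ratio of 1 for 39 of 50 members in siDhx30 over NC (78%, against 70.1% of all genes) and for 35 of 50 in siTfam over NC (70%, against 70.3%). The whole interval lay between -1 and 1 for 27 of 50 in siDhx30 (54%, against 54.1%) and 26 of 50 in siTfam (52%, against 53.1%). By family this held for 15 of 24 Trim genes in siDhx30 and 13 of 24 in siTfam. Of the 6 Oas genes it held for 1 in siDhx30 and 0 in siTfam. For most of them a change of 1 log2 unit in at least 1 direction thus lies inside the interval. Their upper limit lay below 1 for 4 of 6 in siDhx30 and for 1 in siTfam. The lower limit lay above -1 for 3 of 6 in each siRNA.

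The other genes of the pathway were taken from 7 lists of 195 genes, of which 138 were listed in the table and 131 were complete. None had an adjusted p under 0.05 (limma, 0 of 131 in each comparison). At an unadjusted p under 0.05, 4 lay below NC and 0 above in each siRNA, and 0 passed in either direction in siDhx30 against siTfam. The 4 of 131 are 3.05%, against 2.47% of all genes lower in siDhx30 and 3.08% in siTfam, so the share lower was near that of all genes. The 0 above NC stand beside 2.56% of all genes higher in siDhx30 and 3.04% in siTfam. In siDhx30 against siTfam, 1.29% of all genes were higher and 1.5% lower. In siDhx30 the 4 were Grsf1, Nfkb1, Parp14 and Uba7, with mean log2 ratios of -1.48, -0.70, -0.60 and -2.31. In siTfam they were Ago2, Grsf1, Parp14 and Ptpn11, with -0.93, -1.28, -0.64 and -0.54. Grsf1, an RNA-binding protein of mitochondrial RNA granules, had -1.66 and -1.29 in siDhx30 and -1.47 and -1.09 in siTfam. Parp14, an interferon-induced ADP-ribosyltransferase, had -0.57 and -0.64 in siDhx30 and -0.63 and -0.65 in siTfam. Nfkb1, which encodes the p105 precursor of NF-kappaB, had -0.82 and -0.59 in siDhx30 and -0.53 and -0.51 in siTfam. All of these values lay below NC, and the same NC library enters each of the ratios. Uba7, the activating enzyme for ISG15, had -2.96 and -1.66 in siDhx30 and -0.38 and -1.40 in siTfam, with shared values in 3 libraries.

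List by list, the interferon-stimulated effectors stood lowest in siDhx30, with a median of -0.20 over 23 complete genes, and at -0.07 in siTfam. Of the 23, 18 were negative in siDhx30 (78.3%, against 51.9% of all genes) and 14 in siTfam (60.9%, against 52.7%). In siDhx30 13 lay below NC in both replicates (56.5%, against 34.9%) and 4 above (17.4%, against 32.1%). In siTfam 12 lay below in both (52.2%, against 34.4%) and 6 above (26.1%, against 32%). All of these ratios share the single NC library. In siDhx30 over siTfam, which has no part of NC, 13 of the 23 were negative (56.5%, against 50.2%). Both siDhx30 libraries lay below both siTfam libraries for 7 (30.4%, against 14.3%) and above them for 3 (13%, against 14.7%). Rsad2, which encodes the antiviral enzyme viperin, had -0.34 and -1.62 in siDhx30 and -0.30 and -0.95 in siTfam. Bst2, which tethers budding virus, had 0.04 and -0.05 in siDhx30 and 0.28 and 0.22 in siTfam. The median was -0.0067 in siDhx30 and -0.04 in siTfam for 25 genes of RNA sensing and signalling, and 0.06 and 0.12 for 14 genes of DNA sensing. Tnfaip3, an inhibitor of NF-kappaB signalling, had 1.24 and 0.86 in siDhx30 and 0.60 and 2.13 in siTfam. Socs3, the feedback inhibitor of JAK kinases, had -1.04 and -1.12 in siDhx30 and -2.34 and -0.70 in siTfam. Interferon receptor signalling genes had medians of -0.06 in siDhx30 and -0.0027 in siTfam over 14 genes, and antigen presentation genes 0.0062 and -0.04 over 12. The 26 genes that contain or release mitochondrial nucleic acid had medians of -0.0016 and 0.0047. For the 18 genes that silence paired RNA and endogenous retroviruses the medians were 0.05 in siDhx30 and -0.13 in siTfam. Setdb1, the histone methyltransferase recruited by TRIM28, had -0.28 and -0.32 in siDhx30 and -0.32 and -0.35 in siTfam.

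**Figure D5:**
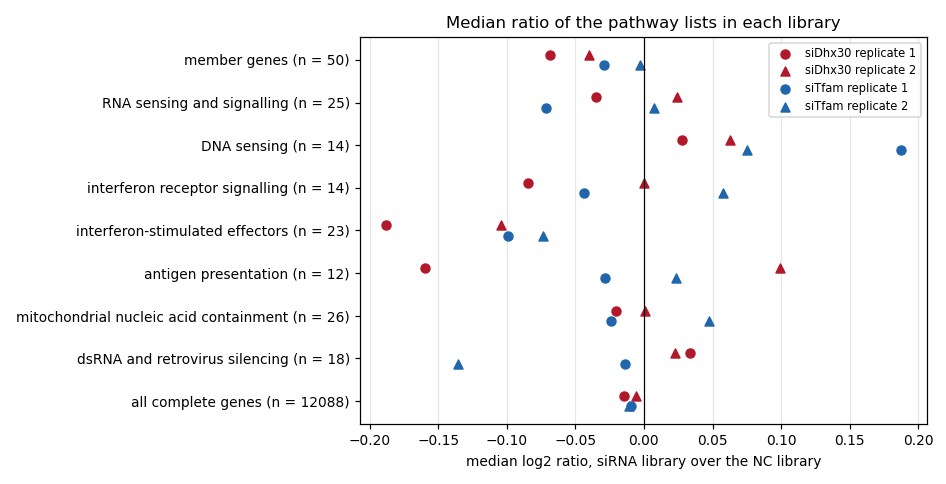
Median log2 ratio over NC (x axis) in each siDhx30 library (red) and siTfam library (blue) for the complete members, the 7 lists of other pathway genes and all complete genes, with circles for replicate 1 and triangles for replicate 2. The effector genes lie below 0 in every library, between -0.19 and -0.07, and the members lie between -0.07 and -0.0027.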

How the data were processed

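RNA-seq of 5 libraries (2 siDhx30, 2 siTfam, 1 NC) was used. Named in the submitters' processing notes were, without settings or strand use, DESeq2, featureCounts, HISAT2, bcl2fastq and the build GRCm38. The authors deposited 1 log2 ratio per gene and siRNA library, per the file headers. Signs were turned to siRNA over NC. Members, lists and tests were chosen with earlier results of these data known.

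Ratios of 12088 complete genes were fitted with limma 3.58.1 (R 4.3.3, robust=TRUE), with NC, the denominator, entered as zeros, 1 coefficient per group, 2 residual degrees of freedom and NC assumed to vary like the siRNA libraries. Adjustment was Benjamini-Hochberg over all genes at 0.05. The test was tried on simulated data first. Named were all members outside the Trim family except 1, which counts but is not reported here, and the 6 highest and 6 lowest Trim genes per comparison with both replicates on 1 side, plus Trim24, Trim28, Trim33 and incomplete members; other pathway genes were up to 4 per list, from which examples were taken after their values were seen. Symbols were matched to GENCODE M21 on GRCm38 (52 of 52 members), which gave IDs and positions; 31 members were overlapped by another gene, 8 of them on the same strand. RefSeq promoters were found for 43 members, and for 36 of these the first 20 transcribed bases were in a GENCODE transcript of the gene. Alternatives left out each siRNA library, used 2 groups alone, robust=FALSE, a fold threshold of 0.5 (log2), centring, genes with missing values, or a replicate block. Tables used pandas 2.3.3 and numpy 2.4.6, and plots matplotlib 3.10.9, in Python 3.11.15.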

Additional observations from a re-analysis of the deposited data

Results flagged for a closer look

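Oas1g and Trim65 stood apart because both siDhx30 libraries lay below NC and both siTfam libraries above it. The log2 difference, siDhx30 over siTfam, was -0.73 for Oas1g and -1.43 for Trim65. The direct comparison tested this difference, and neither passed (limma adjusted p = 0.999 for both). Such a split was seen in 2 of 50 members (4%) and in 591 of 12088 complete genes (4.89%). Both genes had ratios shared exactly with other genes, Oas1g in 3 libraries and Trim65 in 4.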

How the results depend on the processing

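No gene passed an adjusted p of 0.05 under any alternative that was run (0 of all genes in each of the 3 comparisons). The number of members at an unadjusted p under 0.05, 0 as reported, ranged with 1 siRNA library left out from 0 to 2 in siDhx30 against NC, from 1 to 3 in siTfam against NC and from 1 to 4 in siDhx30 against siTfam. The share over all genes under the same settings is not given for these counts, so they are not read as a result about the members. In siTfam against NC the count was 2 (Stat4 and Trim68) with the 2 groups alone, also without a share over all genes beside it. With genes with missing values kept, Ifi27 and Trim7 entered that comparison. As read here, every value of a gene with missing values lay above NC, so these 2 genes lend no support. With a library left out, its group rests on a lone library assumed to vary like the others, and the cause of these moves was not tested.

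With a replicate block the siDhx30 against siTfam count was 3 (Oas1g, Oas3 and Trim65) at the same median, -0.02, and 0 genes passed after adjustment. The share over all genes for that count is not given, so it is not read as a result about the members. With 2 numbers alone the libraries are not called paired, although deviations of same-numbered replicates had a Pearson r of 0.25 across 12088 genes, which are not independent.

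Median member ratios stayed small. With 1 library left out they ranged from -0.0686 to -0.0314 in siDhx30 against NC, from -0.0289 to 0.0168 in siTfam against NC and from -0.0693 to 0.0628 in siDhx30 against siTfam. Among the members with no exactly shared value, an alternative chosen after seeing the data, the siTfam median was -0.0373, against 0.0168 as reported. From 8 to 14 of 50 members changed sign when a library of their own comparison was left out. Centring library medians changed the sign of 1 member. What limits these values is 1 NC library, 2 libraries per siRNA and an unknown depth.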
